A study of Mus musculus with 3 samples.

Results

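Clusters of distal open sites were charted in the chromatin of wild type (WT) mouse islets of Langerhans, and each site was then looked for in islets whose beta cells had lost Taf4, which is part of TFIID, a general transcription factor. ATAC-seq, in which a transposase inserts sequencing adapters into open DNA, had been performed on dissociated islet cells in 3 libraries. The groups were WT, Taf4 KO 1 week and Taf4 KO 5 weeks after inactivation, all of the strain labelled C5LBl6, with 1 library each. According to the study's methods, adult mice of both genotypes carried an Ins1-driven, tamoxifen-inducible Cre and received tamoxifen, and only the Taf4 KO mice had floxed Taf4 alleles. The Cre was thus directed at beta cells, while each library held all cells of the dissociated islets, including endocrine cells in which this Cre was not meant to act. With 1 library per group the spread between animals is unknown, no p-value was computed, and every difference below is one between lists of peaks.

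A cluster was built from distal WT peaks on chromosomes 1 to 19, that is, peaks outside promoter windows, which ran 1000 bp upstream and 100 bp downstream from each protein-coding transcript's start. Neighbouring peaks were joined when the gap between them was 12.5 kb or less, and joined regions of 5 or more peaks were kept. Of 59626 WT peaks on these chromosomes 47116 were distal, and 7231 of them (15.3%) fell into 1086 clusters. The members were thus chosen by the positions of WT peaks alone. The number, density and spacing of their WT peaks are therefore a description, while overlap with the Taf4 KO lists was not used in the choice.

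Distal open sites include enhancers, stretches of DNA where transcription factors bind and act on a promoter that may lie far away. Enhancers that stand close together, often called stretch enhancers or super-enhancers, are known for lying near genes that give a cell type its identity. In beta cells such genes encode transcription factors such as Foxa2, Nkx2-2 and Mafa, and the proteins that sense glucose and release insulin. TFIID binds core promoters, where it receives signals from factors bound at enhancers.

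The sequences of 5 strong sites are shown because each was the strongest WT peak of its cluster and was overlapped in both Taf4 KO lists. Each run holds 300 bases of the plus strand of mm9 around the middle of the peak. Capitals mark matches, on either strand, to 9 short motifs that were searched for and are spelled out further below, and a run with no capitals held none of them. The Foxa2 run spans chr2:147794366-147794665 and holds a half-site of the kind bound by HNF1 factors. The Kcnj11 run spans chr7:53378446-53378745, inside an intron of Abcc8, and holds a pair of E-boxes of the kind bound by factors such as Neurod1. The Slc2a2 run spans chr3:28633755-28634054 and holds an AP-1 match. The Iapp run spans chr6:142230463-142230762 and holds a pair of E-boxes. The Cpe run spans chr8:67103609-67103908, in an intron of Cpe.
Foxa2: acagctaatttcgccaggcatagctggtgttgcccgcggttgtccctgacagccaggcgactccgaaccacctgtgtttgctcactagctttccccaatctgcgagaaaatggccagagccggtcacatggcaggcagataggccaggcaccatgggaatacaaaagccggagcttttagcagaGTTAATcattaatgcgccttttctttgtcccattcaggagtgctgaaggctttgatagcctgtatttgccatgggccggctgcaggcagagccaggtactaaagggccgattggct
Kcnj11: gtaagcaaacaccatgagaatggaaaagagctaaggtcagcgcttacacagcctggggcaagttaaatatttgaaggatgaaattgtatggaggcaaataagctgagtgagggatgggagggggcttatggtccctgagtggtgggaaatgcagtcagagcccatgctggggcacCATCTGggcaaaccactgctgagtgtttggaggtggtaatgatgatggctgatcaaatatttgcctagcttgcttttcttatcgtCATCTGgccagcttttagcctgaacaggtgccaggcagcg
Slc2a2: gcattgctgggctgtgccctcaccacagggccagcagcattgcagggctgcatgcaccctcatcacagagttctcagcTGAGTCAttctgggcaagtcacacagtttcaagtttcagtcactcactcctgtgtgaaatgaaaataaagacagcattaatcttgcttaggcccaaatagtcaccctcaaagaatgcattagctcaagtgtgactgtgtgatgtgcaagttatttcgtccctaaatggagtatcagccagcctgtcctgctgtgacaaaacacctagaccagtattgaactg
Iapp: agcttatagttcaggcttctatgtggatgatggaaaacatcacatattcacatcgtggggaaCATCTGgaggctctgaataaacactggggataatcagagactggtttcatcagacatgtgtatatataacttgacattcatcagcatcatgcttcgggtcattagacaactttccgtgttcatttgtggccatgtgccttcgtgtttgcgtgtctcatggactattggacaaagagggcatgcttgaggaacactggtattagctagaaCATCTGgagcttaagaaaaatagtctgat
Cpe: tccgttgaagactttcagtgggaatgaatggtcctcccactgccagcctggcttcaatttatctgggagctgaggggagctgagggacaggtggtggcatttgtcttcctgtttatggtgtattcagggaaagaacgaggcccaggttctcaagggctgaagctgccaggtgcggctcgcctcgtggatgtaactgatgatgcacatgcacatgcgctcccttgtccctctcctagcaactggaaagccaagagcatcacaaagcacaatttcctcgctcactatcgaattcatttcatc

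The values that the lists give for a peak are its fold over the local background and its -log10 q, the caller's measure of how firmly the peak stood out, and both belong to their own list. The lists differed in size, with 60900 peaks in WT, 150356 at 1 week and 151727 at 5 weeks. They also differed in estimated depth: the background recovered from fold and p was 1.76 times the WT value at 1 week and 2.57 times at 5 weeks. The tissue label was checked by promoter peaks in the WT list. These lay at 21 of 22 beta cell transcription factor genes and 26 of 29 beta cell function genes, Ins1 and Ins2 among them, and at 10 of 18 genes of other islet endocrine cells, with none at Gcg, Sst, Ppy or Pyy. They lay at 3 of 15 acinar, 6 of 11 duct, 3 of 13 endothelial, 2 of 12 stellate cell and fibroblast and 0 of 12 immune genes. In these 5 lists promoter peaks were found at 2, 6, 5, 6 and 3 genes at 1 week and at 4, 8, 9, 8 and 3 at 5 weeks, and among 18 genes not used in islets at 0 in WT, 3 at 1 week and 5 at 5 weeks. For the beta cell transcription factor, beta cell function and other endocrine lists the numbers were 19, 22 and 13 at 1 week and 21, 28 and 16 at 5 weeks. All 15 TFIID subunit genes were marked too in WT, and 13 and 15 of them after 1 and 5 weeks. A full or nearly full list was thus not limited to beta cell genes. The rate among protein-coding genes as a whole was not counted, so how far these numbers single out islet genes was not tested. Because the cells were pooled, a site open in fewer cells and a site less open in each cell cannot be told apart. The part that depth or cell makeup played in the comparisons below was not tested.

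The clusters were mostly small and few were large. Joining gave 28514 regions in all, of which 18921 held a single peak, 5505 held 2, 2054 held 3 and 948 held 4. Just inside the minimum 463 regions held 5 peaks, 839 held 5 to 7, 247 held 8 or more and 114 held 10 or more, up to 26. The median cluster held 6 peaks over 34.5 kb, with lengths from 11.4 kb to 157 kb. Together they spanned 41.3 Mb or 1.67% of chromosomes 1 to 19, and peaks covered 10.3% of that span. The join distance was no natural border, since 576 gaps between neighbouring distal peaks fell short of it by less than 500 bp and 521 exceeded it by up to 500 bp.

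**Figure D1:**
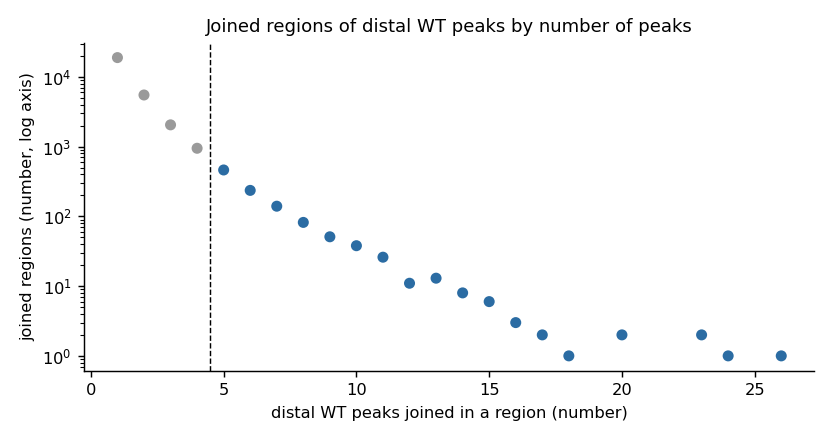
Number of joined regions (y axis, logarithmic) by the number of distal WT peaks joined in them (x axis). Grey points are regions under the minimum of 5 peaks, blue points are clusters, and the dashed line marks the minimum; the counts fall steadily from 18921 single peaks to 1 region of 26 peaks, with no step at the minimum.

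Clusters were unevenly spread over the genome. The share of distal WT peaks that were clustered was followed over 5 equal groups of peaks by the GC content of the surrounding 1 Mb. It was 5.96% in the group with the lowest GC content and 25.1% in that with the highest, and was higher at each step between them. By chromosome it ranged from 11% on chromosome 14 to 20.6% on chromosome 11. Clustered peaks lay in introns more often than the other 39885 distal peaks (59.5%, Wilson 95% interval 58.4 to 60.7, against 46.2%, 45.7 to 46.7) and between genes less often (35.7% against 48%). They were slightly longer, with a median of 461 bp against 415 bp. Their median fold was a little lower, 2.92 against 3.06, and their median -log10 q a little higher, 3.24 against 2.98. CpG-rich sequence, with an observed over expected CpG ratio of at least 0.6, was found in 3.76% of clustered and 5.02% of other distal peaks. Intervals here and below cover the counting of peaks only, and peaks of the same cluster share their surroundings and are not independent.

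Many clusters lay inside long genes. Of the 1086 clusters 469 (43.2%) were contained in 1 protein-coding gene, and 235 (21.6%) overlapped none. The 405 genes that held whole clusters had a median length of 137 kb, against 15.5 kb for all protein-coding genes. Ptprn2, a 792 kb gene for a membrane protein of insulin granules, held 4 whole clusters. Maml3, which encodes a coactivator of Notch signalling, held 3 with 35 peaks, and Prkce, Zmiz1, Igf1r, Hivep3 and Msi2 held 3 each. The gene model Gm20388 held 11, but it is 4435 kb long and runs over other genes. The middle of a cluster lay at a median of 27.5 kb from the nearest protein-coding start, and 73.5% lay within 50 kb. A promoter peak of the WT list stood inside 173 clusters (15.9%), and 3.68% of the clustered peaks lay over the start of a transcript that is not protein-coding, against 3.55% of other distal peaks.

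Overlap with the Taf4 KO lists was then counted, a WT peak being overlapped when it shared 1 bp or more with a peak of that list. At 1 week 3966 of the 7231 clustered peaks were overlapped, 54.8% (53.7 to 56), against 55.3% (54.8 to 55.8) of the other distal peaks and 55.2% of all distal WT peaks. At 5 weeks 5771 were overlapped, 79.8% (78.9 to 80.7), against 74.1% (73.7 to 74.5) and 75.0%. The difference between clustered and other distal peaks was thus -0.459 percentage points at 1 week, with overlapping intervals, and 5.71 points at 5 weeks, with intervals apart. Both comparisons share the WT list, and the change between the times was not tested. The Taf4 KO lists covered 3.69% and 4.21% of chromosomes 1 to 19. When the shared stretch had to make up 50% of both peaks, the clustered shares were 38.9% and 58.4%, against 38.9% and 53.6% of the other distal peaks.

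The GC content of the surrounding 1 Mb moved with these shares. In the lowest GC group, under 41.8%, 74.7% of clustered and 76.3% of other distal peaks were overlapped at 1 week. In the highest, over 47.3%, the shares were 45.8% (43.8 to 47.8) and 33.8% (32.7 to 34.9). The fall with GC was thus seen in both classes and was smaller among clustered peaks. At 5 weeks clustered peaks stayed between 78.3% and 84% in all 5 groups, while the other distal peaks fell from 79.7% to 68.3%. When the other distal peaks were weighted to the GC groups of the clustered ones, a comparison added after the data were seen, clustered peaks stood 6.98 points higher at 1 week and 7.75 points higher at 5 weeks. With weighting by -log10 q as well, these differences were 3.6 and 4.44 points. The sign at 1 week therefore turned with the GC content allowed for.

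**Figure D2:**
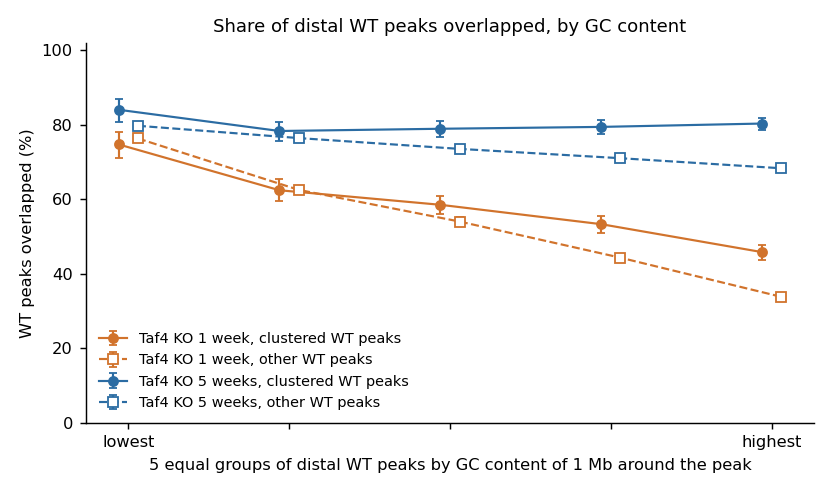
Share of distal WT peaks overlapped by a Taf4 KO peak (y axis, percent) in 5 equal groups of distal WT peaks by GC content of 1 Mb around the peak (x axis, lowest to highest). Filled circles and solid lines are clustered peaks, open squares and dashed lines are other distal peaks, orange is 1 week, blue is 5 weeks, and bars are Wilson 95% intervals over peaks; at 1 week the other distal peaks fall from 76.3% to 33.8% and clustered peaks from 74.7% to 45.8%.

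Strength in WT went with overlap inside clusters. Of clustered peaks with a -log10 q under 2, 22.3% were overlapped at 1 week and 50.3% at 5 weeks. Of those at 10 or more, 95.2% and 99.8% were. The strongest peak of each cluster, with a median -log10 q of 10.3, was overlapped in 86.3% of clusters at 1 week (84.1 to 88.2) and 97.4% at 5 weeks (96.3 to 98.2). The weakest, with a median of 1.55, was overlapped in 22.4% (20 to 24.9) and 52.2% (49.2 to 55.2). Most clusters thus had a peak call at their strongest site in both Taf4 KO lists, and most had none at their weakest site at 1 week.

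**Figure D3:**
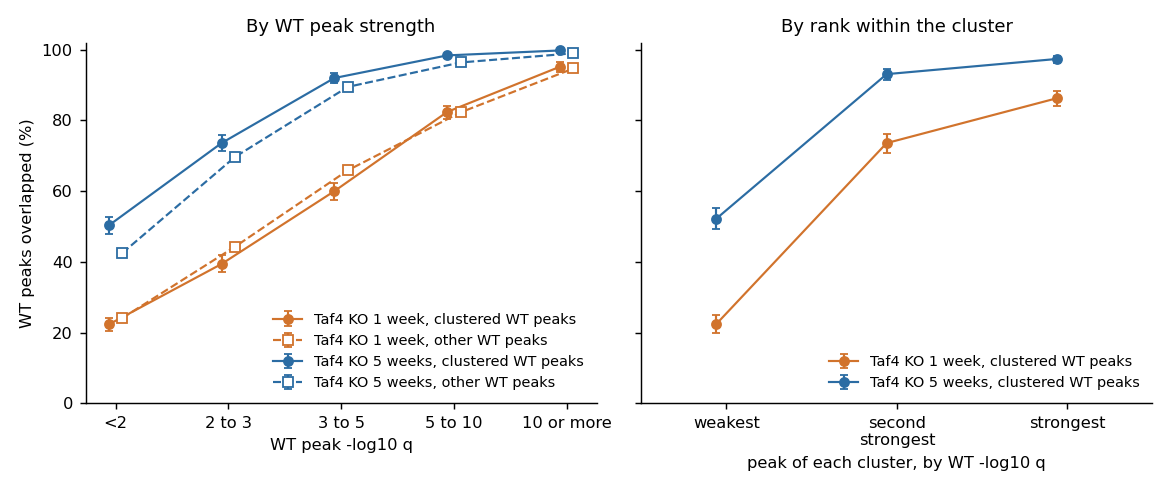
Share of WT peaks overlapped (y axis, percent) by -log10 q of the WT peak (left x axis) and for the weakest, second strongest and strongest peak of each cluster (right x axis). Orange is 1 week, blue is 5 weeks, filled circles are clustered peaks, open squares are other distal peaks and bars are Wilson 95% intervals over peaks; at 1 week clustered peaks rise from 22.3% in the weakest class to 95.2% in the strongest.

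Position and size of the cluster moved the shares less. The first and last peaks were overlapped in 52.2% of cases at 1 week and 78.4% at 5 weeks, and the peaks between them in 56% and 80.4%, with like median -log10 q of 3.24 and 3.25. By the number of peaks joined, single distal peaks were overlapped in 57.8% at 1 week and 73.3% at 5 weeks. Regions of 3 to 4 peaks, just under the minimum, had 51.6% and 75.3%, those of 5 to 7 peaks 52.3% and 78.1%, and those of 10 or more 61.5% and 83.2%. At 5 weeks the share was higher at each of these steps, whereas at 1 week it was lowest in regions of 3 to 4 peaks.

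Whole clusters also differed widely at 1 week. The median cluster had 57.1% of its peaks overlapped at 1 week and 80% at 5 weeks, with 10th percentiles of 20% and 57.1%. Every peak was overlapped in 59 clusters (5.43%) at 1 week and in 300 (27.6%) at 5 weeks. Among the 948 joined regions of 4 peaks, which had fewer peaks to lose, every peak was overlapped in 10.2% and 36.2%. No peak was overlapped in 48 clusters (4.42%) at 1 week and in 2 (0.184%) at 5 weeks, against 9.49% and 0.633% of the regions of 4. Of the 48 clusters with none at 1 week, 25 lay in the highest GC group and 0 in the lowest. The median share at 1 week was 80% in the 88 clusters of the lowest group and 40% in the 358 of the highest, while at 5 weeks it was 85.7% and 83.3%.

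Peaks that the Taf4 KO lists placed between WT peaks were counted inside the clusters as well. In the 41.3 Mb of clusters the 1 week list held 110 peaks per Mb against 55 elsewhere, and the 5 week list 167 against 59. Peaks that overlapped no WT peak were less dense inside clusters than elsewhere, at 11.1 against 41.5 per Mb at 1 week and 27.4 against 41.9 at 5 weeks. They numbered 460 in 315 clusters at 1 week and 1132 in 637 clusters at 5 weeks. Their density at 1 week was 20 per Mb in clusters of the lowest GC group and 6.61 in those of the highest. At 5 weeks it was 25.5 and 27. The density elsewhere was not split by GC content, so the part of GC content in this contrast was not tested. By the choice of members the WT list held 180 peaks per Mb inside clusters and 21.5 elsewhere. A Taf4 KO peak inside a cluster thus had more WT peaks to meet, so these densities are a description only. The same joining rule applied to the Taf4 KO lists as deposited gave 6882 clusters at 1 week, which overlapped 29.5% of the WT clusters, and 6636 at 5 weeks, which overlapped 72.7%. With these lists cut to the WT number of peaks it gave 399 clusters at 1 week, which overlapped 20.2% of the WT clusters, and 879 at 5 weeks, which overlapped 49.1%. Counted from the other side, 4.58% of the 1 week clusters and 11.8% of the 5 week clusters met one from WT before cutting. After cutting, these shares were 53.1% and 60.5%. No background share was computed for any of these overlaps, so a loss of clusters was not tested.

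Genes of beta cells were looked up next. A gene was given a cluster when the cluster overlapped its body or came within 50 kb of one of its protein-coding starts, which held for 2018 of 21416 protein-coding genes (9.42%). Of the beta cell transcription factor list 10 of 22 genes (45.5%) had a cluster, among them Foxa2, Glis3, Hnf4a, Insm1, Mafa, Neurod1, Nkx2-2, Pax6 and Tshz1. Of the beta cell function list 17 of 29 (58.6%) had one, among them Abcc8, Cacna1d, Chga, Chgb, Cpe, Ffar1, Glp1r, Iapp, Kcnj11, Pcsk2, Prlr, Ptprn, Ptprn2, Scg3, Slc2a2 and Syt7. The count of the transcription factor list depended on the rule, with 0 genes when peaks were joined over gaps of up to 5000 bp, 6 with wider promoter windows around starts of all transcripts and 1 when the lists were limited to a -log10 q of at least 3. The median gene lengths of these lists were 27.1 kb and 25.5 kb, against 15.5 kb for all protein-coding genes. Pdx1 and Nkx6-1, homeodomain factors of beta cells, and the insulin genes Ins1 and Ins2 had none by this rule.

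Shares were lower in lists of other cells than in the beta cell lists, but not all were below the 9.42% of all protein-coding genes. They were 16.7% for other endocrine, 13.3% for acinar, 27.3% for duct and 13.3% for TFIID genes, and 8.33% for stellate cell and fibroblast genes. Of 18 genes of other islet endocrine cells Ppy, Pyy and Slc7a2 had a cluster, and Gcg and Sst had none. Among acinar genes 2 of 15 had one (Cel and Ctrb1), among duct genes 3 of 11 (Hes1, Krt18 and Krt7), among stellate cell and fibroblast genes 1 of 12 (Thy1), and among endothelial, immune and unused genes 0 of 13, 0 of 12 and 0 of 18. Of 15 TFIID subunit genes Taf11 and Taf8 had one. Median gene lengths were 8.27 kb for the other endocrine list, 11.2 kb for acinar, 7.86 kb for duct and 7.47 kb for unused genes. They were 26.8 kb for stellate cell and fibroblast, 42.9 kb for endothelial, 17.2 kb for immune and 15.7 kb for TFIID genes. The part of gene length in these counts was not tested.

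The 12 clusters of the transcription factor list held 89 peaks, of which 53 (59.6%) were overlapped at 1 week and 77 (86.5%) at 5 weeks. The 24 clusters of the function list held 179, with 106 (59.2%) and 142 (79.3%). The shares of all clustered peaks were 54.8% and 79.8%, and those of all distal WT peaks 55.2% and 75.0%. The shares of the 2 gene lists rest on 89 and 179 peaks, and no interval was computed for them. They were pooled with the Taf4 KO lists as deposited only. No difference of either gene list from the clustered peaks is therefore drawn from these values.

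**Figure D4:**
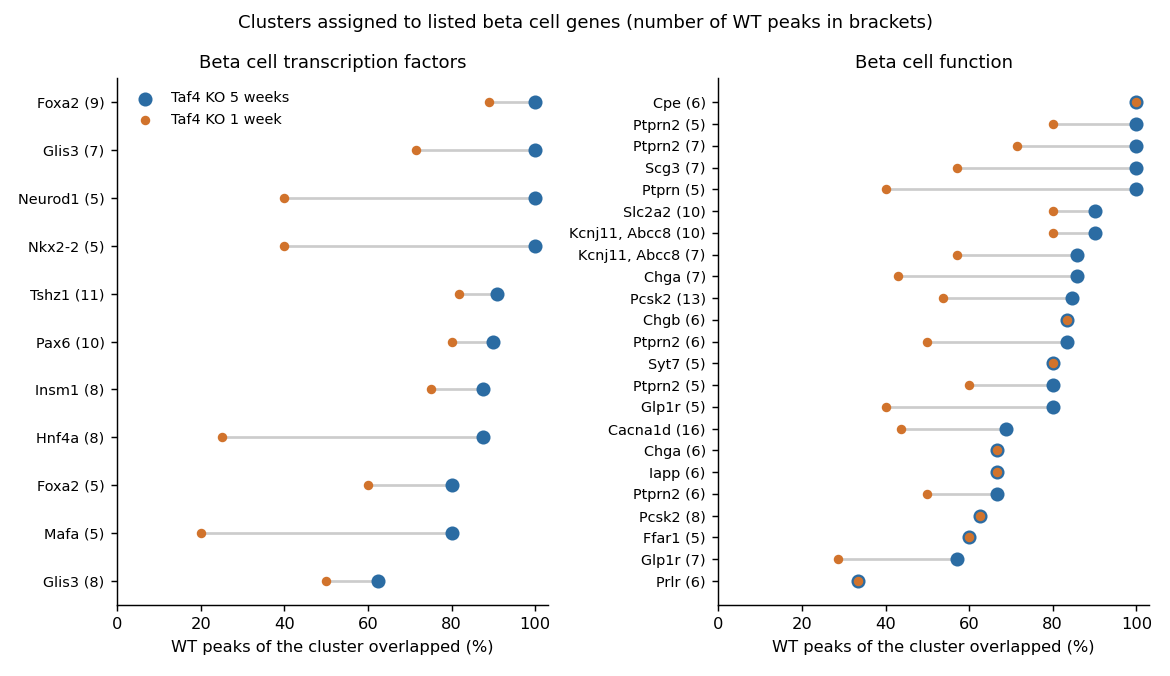
Share of a cluster's WT peaks overlapped (x axis, percent) at 1 week (small orange points) and at 5 weeks (large blue points) for clusters assigned to beta cell transcription factor genes (left) and beta cell function genes (right), each row being 1 cluster with its number of WT peaks in brackets. Among the transcription factor clusters shown the shares at 1 week run from 20% at Mafa to 88.9% at a Foxa2 cluster, and those at 5 weeks from 62.5% to 100%.

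The Foxa2 cluster at chr2:147777009-147826765 was a run of strong sites. Foxa2 is a forkhead factor that opens chromatin in the endocrine pancreas. The cluster held 9 peaks over 49.8 kb between genes, at distances from 45.1 to 94.4 kb downstream of the Foxa2 start, and none of them in a gene. Along the chromosome their -log10 q in WT was 6.4, 4.87, 19.7, 8.99, 15.9, 1.92, 11.4, 12.4 and 1.7. At 1 week 8 of the 9 were overlapped, by peaks of 7.65, 3.26, 17.4, 4.57, 11.4, 5.1, 10.8 and 8.3, and the last, weakest site had none. At 5 weeks all 9 were overlapped, by peaks of 20.2, 9.05, 29.6, 10.4, 28.8, 8.52, 18.2, 12.9 and 15.7. The strongest site, whose sequence is printed above, was the strongest in each of the 3 lists. A second Foxa2 cluster, at chr2:147849026-147883847 and over the gene itself, held 5 peaks with 3 overlapped at 1 week and 4 at 5 weeks.

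Pax6 and the zinc finger factors had shares from 50% to 81.8% at 1 week. Pax6, a paired homeodomain factor of all islet endocrine cells, had a cluster of 10 peaks at chr2:105488322-105560511. Of these 8 were overlapped at 1 week and 9 at 5 weeks, or 40% and 50% of them when the shared stretch had to make up 50% of both peaks. Its site 5.57 kb upstream of a Pax6 start had -log10 q values of 8.12, 11.7 and 18.1 in the WT, 1 week and 5 week lists. The strongest site without a 1 week peak, 1.41 kb downstream of a start, had 6.69 in WT and 4.27 at 5 weeks. Insm1, a zinc finger factor of endocrine differentiation, had 8 peaks with 6 and 7 overlapped, all within the neighbouring gene Ralgapa2. Tshz1, another zinc finger factor, had 11 peaks with 9 and 10 overlapped, or 36.4% and 54.5% by that stricter overlap. Glis3, a zinc finger factor that acts on insulin genes, held 8 peaks in 1 cluster with 4 and 5 overlapped, and 7 in another with 5 and 7.

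Clusters of other factors held few sites with a 1 week peak. Neurod1, a bHLH factor that activates insulin genes, had 5 peaks at chr2:79288013-79313986, with WT -log10 q of 3.87, 2.13, 5.66, 2.3 and 2.47. At 1 week 2 of them were overlapped, by peaks of 2.83 and 11.8. At 5 weeks all 5 were, by peaks of 3.74, 2.12, 4.2, 5.43 and 17.6. Of these 5 sites the one 16.9 kb upstream of the start had the middle WT value, 2.47, and was the strongest in both Taf4 KO lists.

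Nkx2-2, a homeodomain factor of beta cells, had 5 peaks at chr2:147007622-147031343 with WT -log10 q of 4.08, 4.04, 8.63, 4.27 and 7.16. At 1 week the 2 strongest were overlapped, by peaks of 4.34 and 2.57, and at 5 weeks all 5 were, the strongest by a peak of 10.1. That strongest site was 2357 bp long and lay over starts of Nkx2-2 transcripts annotated as non-coding. Mafa, a bZIP activator of insulin genes, had 5 peaks at chr15:75571669-75594648, of which 1 was overlapped at 1 week and 4 at 5 weeks. The site that kept a 1 week peak, 7.89 kb upstream of Mafa, had -log10 q values of 8.65, 4.97 and 14.8 in the 3 lists. The WT list had a cluster of 8 peaks upstream of Hnf4a, a nuclear receptor. This cluster ran over 3230401D17Rik and Gdap1l1, and the Gdap1l1 start was the nearest. Of its peaks 2 were overlapped at 1 week and 7 at 5 weeks, or 50% at 5 weeks with the Taf4 KO lists cut or scaled. By the stricter overlap the shares were 0% and 20% at Mafa and 40% at 5 weeks at Neurod1. With the Taf4 KO lists cut or scaled, the share at 5 weeks was 40% at Mafa and 60% at Nkx2-2. At Neurod1 it was 80% with them cut and 60% with them scaled. The GC content of the surrounding 1 Mb was 39.6% at Neurod1, 41.9% at Nkx2-2, 48.8% at Mafa and 48.1% at Hnf4a.

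Genes of glucose uptake and of the ATP-sensitive potassium channel had clusters with 57.1% to 80% of their sites overlapped at 1 week and 85.7% to 90% at 5 weeks. Kcnj11 and Abcc8 encode the pore and the sulfonylurea receptor of this channel, which closes as glucose is metabolised. They lie side by side, and a cluster of 10 peaks at chr7:53340462-53387089 ran over both, with 8 overlapped at 1 week and 9 at 5 weeks. The share at 1 week was 80% with the list as deposited but 30% with the Taf4 KO lists cut to the WT number of peaks or scaled to the WT background. Its strongest site, 23 kb upstream of Kcnj11 in an intron of Abcc8, had -log10 q values of 26.1, 18.5 and 29.4 in the WT, 1 week and 5 week lists. The only site found in neither Taf4 KO list was also the weakest in WT, at 1.3. A second cluster of 7 peaks at chr7:53400969-53443304 over Abcc8 had 4 and 6 overlapped. Its strongest site had values of 24.1, 10.3 and 24 in the 3 lists.

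Slc2a2 encodes the glucose transporter GLUT2. Its cluster of 10 peaks at chr3:28594472-28645301 had 8 overlapped at 1 week and 9 at 5 weeks. The strongest WT site, 37.1 kb downstream of the start, had 16.3 in WT, 5.21 at 1 week and 10.7 at 5 weeks, while its neighbour at 39.4 kb had 11.4, 14.4 and 21.3. The order of these sites was thus exchanged in both Taf4 KO lists. A site at 4.15 kb downstream, in an intron, had 3.29 in WT, 11.1 at 1 week and 20.2 at 5 weeks. Cacna1d, a gene for an L-type calcium channel subunit, held 16 peaks with 7 and 11 overlapped.

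**Figure D5:**
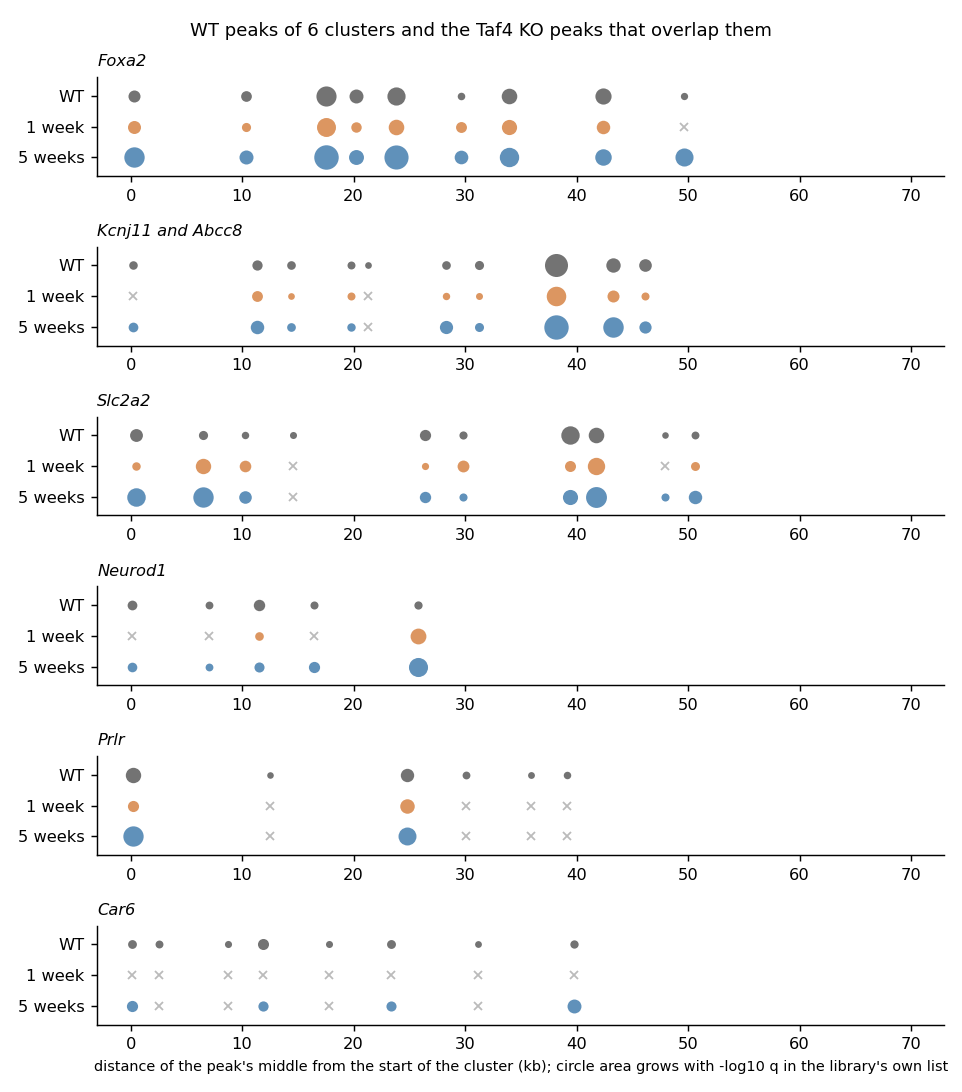
Maps of 6 clusters, with the distance of each WT peak's middle from the start of the cluster on the x axis (kb) and the 3 lists as rows. A circle is a peak, of the list itself for WT or overlapping the WT peak for Taf4 KO, with an area that grows with its -log10 q in its own list, and a grey cross is a WT peak with no overlapping peak in that list; Foxa2 has 1 cross in all, and Car6 has 8 at 1 week and 4 at 5 weeks.

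Genes of hormone processing and granules came next. Cpe encodes carboxypeptidase E, which trims insulin. Its cluster of 6 peaks at chr8:67094156-67123799, all in introns, was overlapped at all 6 sites at both times. The strongest WT site had values of 20.2, 8.34 and 20.4 in the 3 lists. The site 63.5 kb downstream of the start had 13.5, 19.1 and 29.3. Iapp encodes islet amyloid polypeptide, which is released with insulin. Of its 6 peaks at chr6:142230259-142256383 the same 4 were overlapped at both times. The strongest 2 lay 16.3 and 8.69 kb upstream of Iapp, in introns of Slco1a5, with WT values of 33 and 24.5, 1 week values of 11 and 8.17 and 5 week values of 20.4 and 27.8. The other 2 overlapped sites shared 1 peak in each Taf4 KO list, with values of 1.86 and 3.53, and the 2 sites without an overlap had WT values of 1.99 and 2.13.

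Scg3, a granule protein that binds chromogranins, had 7 peaks with 4 and 7 overlapped. Pcsk2, the convertase that cuts proinsulin, had clusters of 13 and 8 peaks, with 7 and 11 overlapped in the longer and 5 and 5 in the shorter. With the Taf4 KO lists cut or scaled, the share at 5 weeks fell from 84.6% to 53.8% in the longer and from 62.5% to 37.5% in the shorter. Chga, the gene of chromogranin A, had clusters of 7 and 6 peaks with 3 and 6, and 4 and 4, overlapped. Chgb had 6 peaks with 5 and 5, in a cluster wholly within the gene 1110034G24Rik, whose start was nearer. The 5 Ptprn2 clusters held between 5 and 7 peaks each, of which 50% to 80% were overlapped at 1 week and 66.7% to 100% at 5 weeks. Syt7, a calcium sensor of exocytosis, had 5 peaks with 4 and 4 overlapped.

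Clusters of receptor genes had 28.6% to 60% of their sites overlapped at 1 week. Prlr encodes the prolactin receptor. Its cluster of 6 peaks at chr15:10130753-10170432 had the same 2 sites overlapped at both times, with WT values of 11.1 and 8.14, 1 week values of 5.36 and 9.75 and 5 week values of 20.1 and 15.5. The other 4 had WT values from 1.21 to 2.13. Glp1r, the receptor of the incretin GLP-1, had clusters of 7 and 5 peaks with 2 and 4, and 2 and 4, overlapped. The share of the former at 1 week was 28.6%, and 0% with the Taf4 KO lists cut to the WT number or scaled to the WT background. Ffar1, a receptor of fatty acids, had 5 peaks with 3 and 3, in a cluster over the body of Ffar2, whose start was nearer. Among genes of other endocrine cells, Ppy and Pyy, which encode pancreatic polypeptide and peptide YY, shared a cluster of 8 peaks at chr11:101958241-102007571 with 2 overlapped at 1 week and 7 at 5 weeks. The share of this cluster at 5 weeks was 87.5%, and 50% with the Taf4 KO lists cut or scaled. The strongest site of the cluster, 21.9 kb upstream of Ppy, had 30.2 in WT, 15.8 at 1 week and 40.5 at 5 weeks.

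The largest clusters lay mostly elsewhere. Rap1gap2, which encodes an activator of the GTPase function of Rap1, held 24 peaks over 146 kb at chr11:74222239-74368701, with 12 overlapped at 1 week and 22 at 5 weeks. Maml3 held 23 with 13 and 19, Daam1, a formin of the actin skeleton, 20 with 10 and 14, and Tbc1d1, a regulator of Rab proteins, 17 with 12 and 16. Arid1b, a subunit of the BAF remodeller, held 17 with 10 and 13, Celf4, an RNA-binding protein, 16 with 14 and 15, and Foxn3, a forkhead factor, 16 with 11 and 14. The cluster nearest to AB041803 held 23 peaks outside protein-coding genes, with 11 and 14 overlapped. The strongest site of the Rap1gap2 cluster is shown as the strongest of the largest cluster outside multicopy sequence. It had -log10 q values of 17.3, 2.93 and 7.94 in the WT, 1 week and 5 week lists. It spans chr11:74349693-74349992 on the plus strand and holds none of the motifs searched.
Rap1gap2: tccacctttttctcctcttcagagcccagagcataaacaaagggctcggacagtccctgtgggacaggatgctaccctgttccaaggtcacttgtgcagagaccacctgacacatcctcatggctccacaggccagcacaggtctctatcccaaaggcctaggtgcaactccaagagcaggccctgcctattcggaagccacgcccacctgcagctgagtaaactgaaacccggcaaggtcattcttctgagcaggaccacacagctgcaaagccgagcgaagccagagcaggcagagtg

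Some of the largest clusters lay in sequence that is present in several copies. Among the words of 31 bases in its peaks, 94% occurred more than once in the assembly in the cluster of 26 peaks at C130026I21Rik, chr1:85227548-85342378, of which 23 were overlapped at 1 week and 24 at 5 weeks. At Gm15319, with 18 peaks, 83.1% did. In all, 13 clusters with 118 peaks had a share of 50% or more, and their peaks were overlapped in 83.9% at 1 week and 92.4% at 5 weeks, against 54.4% and 79.6% in the other 1073. The Sfi1 cluster of 20 peaks at chr11:3023627-3085363 had a share of such words of 13.8% and a median fold of 1.8. Its recovered background was 38.5, 120 and 148 reads in the WT, 1 week and 5 week lists, against medians over the lists of 4.57, 6.85 and 9.91. Raised background was not particular to it, with 7.36, 22.2 and 30.8 reads at C130026I21Rik and 10.3, 25.4 and 25.8 at Gm15319. At Sfi1 95% and 90% of peaks were overlapped at 1 and 5 weeks, and 50% and 10% with the Taf4 KO lists scaled to the WT background. When the shared stretch had to make up 50% of both peaks, these shares were 55% and 60% at Sfi1. They were then 42.3% and 34.6% at C130026I21Rik and 33.3% and 16.7% at Gm15319.

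Clusters of 8 or more peaks at the ends of the range were named by rule. Among the lowest shares at 1 week was that of a cluster at Car6, a gene for a secreted carbonic anhydrase. It had 0 of 8 peaks overlapped at 1 week and 4 at 5 weeks. The WT -log10 q of its peaks lay between 1.37 and 5.25. Low shares were also found at Ctnnb1, which encodes beta-catenin, with 1 of 10 at 1 week and 7 at 5 weeks. Rtn4rl1 had 1 of 8 and 7, and Bag3, a co-chaperone, had 1 of 8 and 4. The Ctnnb1 cluster overlapped no protein-coding gene, and its middle lay 81.9 kb from the nearest start. The GC content of the surrounding 1 Mb was 47.7% at Car6, 47.9% at Ctnnb1, 46.5% at Rtn4rl1 and 44.7% at Bag3. Car6 and Ctnnb1 thus lay in the highest GC group, where the median cluster had 40% of its peaks overlapped at 1 week. The part of GC content in the share of any named cluster was not tested.

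The lowest shares at 5 weeks were 3 of 9 peaks at Gpr132 and at Kcnma1, a calcium-activated potassium channel. Next came 4 of 10 at Tmem108, 4 of 9 at Phf2, a histone demethylase, and 5 of 10 at Ephb3, an ephrin receptor. The clusters named for Kcnma1 and Ephb3 overlapped no protein-coding gene, and their middles lay 131 and 95.8 kb from the nearest start. At Kcnma1 the strongest sites were found in both lists: those with WT values of 13.5 and 20.3 were overlapped by peaks of 15.9 and 12.2 at 1 week and 31 and 22.6 at 5 weeks, while the 6 sites found in neither list had WT values from 1.42 to 2.07. Every peak was overlapped at both times in 4 clusters of this size, at Gm10354 with 14 peaks, Gse1 with 9, A530032D15Rik with 9 and Sp140 with 8. In all of these but Gse1 more than 50% of the words occurred in several copies. Most of them were not complete when the shared stretch had to make up 50% of both peaks. The shares at 1 and 5 weeks were then 35.7% and 21.4% at Gm10354 and 33.3% and 77.8% at Gse1. They were 44.4% and 33.3% at A530032D15Rik, and 87.5% at both times at Sp140.

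The motif search used the middle 300 bases of the 5705 clustered and 29562 other distal peaks that were long enough, on both strands. The motifs were TGTTTAC for forkhead factors, TAATTA for homeodomain factors, CAGATG for bHLH E-boxes, TGCTGAC for MAF factors, TGANTCA for AP-1, GTTAAT for HNF1, GTTGCCA for RFX, GGGCGG for GC boxes and CCGGAAG for ETS factors. Clustered and other peaks held most of them at rates whose intervals overlapped. The E-box was found in 29% of clustered and 30.3% of other distal peaks, AP-1 in 13.4% and 13.9%, the MAF half-site in 8.13% and 7.86%, and the forkhead motif in 7.73% and 8.38%. The HNF1 half-site was somewhat less frequent in clustered peaks, in 9.17% (8.45 to 9.94) against 11% (10.6 to 11.3), whereas the intervals just met for the homeodomain motif, at 6.89% (6.26 to 7.58) against 7.83% (7.53 to 8.15). The GC box, with 9.96% and 9.5%, RFX, with 4.89% and 5.53%, and ETS, with 2.26% and 2.23%, had overlapping intervals.

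Among clustered peaks, those with an HNF1 half-site were overlapped at 1 week in 73.2% (69.3 to 76.8), against 61.4% (60.1 to 62.7) of those without, and at 5 weeks in 91% against 85.8%. For the homeodomain motif the shares were 72.3% (67.6 to 76.5) against 61.7% (60.4 to 63) at 1 week and 92.6% against 85.8% at 5 weeks. Forkhead matches had 70.5% against 61.8% at 1 week, and 88.7% (85.4 to 91.3) against 86% (85.1 to 86.9) at 5 weeks, with overlapping intervals. Peaks with these AT-rich motifs also lay in stretches of slightly lower GC content, with medians of 45.1% against 45.9% for HNF1, and had a higher WT -log10 q, with medians of 4.61 against 3.98, and the part of either in these shares was not tested. Peaks with a GC box were overlapped at 5 weeks in 91% (88.4 to 93.1) against 85.7% (84.7 to 86.6), and lay in stretches of higher GC content, with medians of 46.9% against 45.6%, and had a higher WT -log10 q, with medians of 5 against 3.96. At 1 week the GC box intervals overlapped, and those of the E-box, MAF, AP-1, RFX and ETS motifs did so at both times.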

How the data were processed

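ATAC-seq peaks of 3 islet libraries were used, 1 per group as given by the genotype and time labels. The authors mapped reads to mm9 with Bowtie 1.0.0, keeping unique alignments, and called broad peaks with MACS2 2.1.1 in each library. The deposited lists give per peak the fold over background (a ratio), the -log10 p and -log10 q, and a score, a multiple of the -log10 q that was not used. The lowest -log10 q of the WT, 1 week and 5 week lists was 1.02, 1.01 and 1.01. A control library or duplicate removal is not given in the sources used here. Read totals are not in such lists, so relative depth was estimated. Fold and p of a peak were taken as those of a single Poisson count, and its local background was solved from them. The first percentile of this background came to 3.66, 6.45 and 9.38 reads in these lists. How well a single count stands for a whole broad peak was not tested. Equal read extension was assumed.

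The annotation was GENCODE vM1 on the same build, with 43976 protein-coding starts. Intervals were handled in Python 3.11.15 with numpy 2.4.6, and joining and overlaps gave the same counts as bedtools 2.31.1. The code was also tested on simulated lists. GC content was taken over 1 Mb around a peak and cut into 5 equal groups of distal WT peaks. Intervals for shares are Wilson 95% intervals and cover counting only. No replicate existed, so no test was run between groups. Clusters carry the symbol of the listed gene or of the protein-coding start nearest to their middle. Those named were the 12 with the most peaks, those of the beta cell and other endocrine lists and, among clusters of 8 or more peaks, the 5 lowest at each time and up to 5 that were complete at both. For other lists symbols only were given. A few clusters that this rule names are not reported here. Of 10 gene lists, symbols absent from chromosomes 1 to 19 were left out. The members and lists were chosen with earlier results of these data known. The alternatives tried are given at the end.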

Additional observations from a re-analysis of the deposited data

Results flagged for a closer look

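The difference between clustered and other distal WT peaks in the share overlapped had opposite signs at the 2 times, -0.459 percentage points at 1 week and 5.71 at 5 weeks. The change between the times was not tested, since each time is 1 library. Both comparisons share the WT list.

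Chromosome X was outside the comparisons. By the same rule the WT list held 11 clusters there, with 80 peaks, of which 42 were overlapped at 1 week and 51 at 5 weeks.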

How the results depend on the processing

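No paired analysis was possible because each group had 1 library and no value comes from a test, and no replicate could be left out. The number of clusters, 1086 as reported, followed the rule: 58 with a gap of 5000 bp, 2355 with 25000 bp, 247 with 8 or more peaks and 172 when all lists were limited to a -log10 q of at least 3. The clustered shares overlapped at 1 and 5 weeks, 54.8% and 79.8% as reported, were 65.5% and 83.8% with the shorter gap, 52.1% and 76.6% with the longer, 59.5% and 82.9% with 8 or more peaks and 65.1% and 94.8% with the q limit. They were 38.9% and 58.4% with a reciprocal overlap of 50%, 48.7% and 70.2% with the Taf4 KO lists cut to the WT number of peaks, and 49% and 65.8% with these lists scaled to the WT background. The number of clusters complete at 1 and 5 weeks, 59 and 300, was 8 and 68, 37 and 172, and 39 and 124 under the same 3 settings.

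The difference from other distal peaks at 1 week, -0.459 points, changed sign under most settings: 10.3 with the shorter gap, 4.53 with 8 or more peaks, 0.0609 with windows of 2000 bp around starts of all transcripts, 0.0227 with reciprocal overlap, 0.921 with the lists cut, 0.826 with them scaled, 6.98 with GC weighting and 3.6 with weighting by GC and -log10 q. It was -5.39 with the longer gap and -1.78 with the q limit. At 5 weeks it stayed positive under every alternative run, at 8.87 with the shorter gap, 2.84 with the longer, 8.41 with 8 or more peaks, 8.24 with the lists cut, 8.47 with them scaled, 7.75 with GC weighting and 4.44 with both weights. Of the beta cell transcription factor genes 0 had a cluster with the shorter gap, 6 with the wider windows and 1 with the q limit. As reported the count was 10, and the share of all genes was counted for the rule as reported only. Dropping the 13 clusters of multicopy sequence, which like the weighting was chosen after seeing the data, left the differences at -0.941 and 5.5. The cause of these movements was not tested. Of 63 named clusters, the number of overlapped peaks at 1 and 5 weeks was lower in 47 and 53 with reciprocal overlap, in 23 and 40 with the lists cut and in 23 and 47 with them scaled, and equal in the rest. The recovered depth was lowest in WT, and its part in these values was not tested.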
